A study of Mus musculus with 12 samples.

Results

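The 9 genes described here are Cux1, Cux2, Pou3f1, Pou3f2, Pou3f3, Rorb, Mef2c, Unc5d and Inhba, which mark or shape neurons of the upper layers of the cerebral cortex. They were found by matching these symbols to the Ensembl identifiers of the count files, and made up 9 of 48709 genes counted and 9 of 16511 genes tested. The 12 RNA-seq libraries came from cortex of C57BL/6J mouse embryos at E15.5, 4 from control, 4 from a BAF155 conditional knockout (cKO) and 4 labelled Pax6 cKO, named Pax6-labelled libraries from here on. Smarcc1 encodes BAF155, which is part of the core of the chromatin remodeller BAF, and Pax6 encodes a paired-domain factor made by radial glia, from which cortical neurons descend. The series design compares each of these groups with control. Where both are spoken of, they are called cKO-labelled, since counts do not show the deletion of Pax6. The labels name neither the Cre driver nor the floxed alleles, so the cells in which either gene was deleted, and what the controls share with the cKO-labelled groups, are not stated. Whether the 4 replicates are different embryos is not said in the labels. A p-value here therefore speaks only to the scatter of the sequenced libraries, part of which may be technical. Within a cKO-labelled group all of the scatter may be technical, whereas the controls held libraries of both sexes by their Xist and Y-linked counts.

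Projection neurons of the cortex are born in an inside-out order. Deep-layer neurons leave the progenitor zones early and upper-layer neurons later, in large part from basal intermediate progenitors, which radial glia produce. Upper-layer neurons send axons mainly to other areas of the cortex, many of them through the corpus callosum. The transcription factors of the POU class III (Pou3f1, Pou3f2 and Pou3f3) act in the specification and migration of these neurons, and the homeodomain factors Cux1 and Cux2 in their dendrites and synapses. Rorb encodes a nuclear receptor of layer 4, and Mef2c a MADS-box factor of differentiating neurons. Unc5d is a receptor of the netrin receptor family, which also binds FLRT proteins, and marks newborn neurons of the multipolar stage. Inhba encodes the beta A subunit of inhibin and activin, secreted ligands of the TGF-beta family.

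The values are whole-gene read counts. Total counts were 15.2 to 32 M reads per library. Counts of Smarcc1 fell in the BAF155 cKO to 127 ± 10.8 CPM (counts scaled to library size, per M reads, mean ± SD, n = 4) from 303 ± 68.7 CPM in control (log2 fold change −1.25, adjusted p = 1.64e-05), and were also lower in the Pax6-labelled libraries, at 186 ± 6.71 CPM (−0.71, adjusted p = 0.00128). Counts of Pax6 went against the label, at 389 ± 8.74 CPM in the Pax6-labelled libraries and 110.2 ± 19.1 CPM in control (1.82, adjusted p = 9.46e-08), and were also higher in the BAF155 cKO, at 314 ± 40.3 CPM (1.51, adjusted p = 9.98e-07). Neither change was seen only under its own label. Whole-gene counts can include reads from outside a deleted part, so they do not measure intact transcript. From the Xist and Y-linked counts, the 4 BAF155 cKO libraries and control replicates 3 and 4 were female, and the Pax6-labelled libraries and control replicates 1 and 2 were male. A second fit of all 12 libraries split the controls by sex. It compared each cKO-labelled group with the 2 controls of the same sex, while the other libraries still entered the scaling and the estimate of spread. In the direct comparison of the cKO-labelled groups, genotype and sex cannot be told apart. By the lane numbers in the count file names, lane 8 held the controls only, lane 1 the Pax6-labelled libraries and BAF155 cKO replicates 1 and 2, and lane 3 the remaining BAF155 cKO libraries, so lane and group cannot be told apart against control. Mitochondrial reads made up 2.27% and 2.18% of counts in the male controls and 1.21% and 1.38% in the female controls. Over all 12 libraries, however, the male and female values overlap. The Pax6-labelled libraries had 2.04% to 2.91% mitochondrial reads. In the BAF155 cKO they made up 2.92% and 3.27% in replicates 1 and 4 and 1.57% and 2.09% in replicates 2 and 3. All BAF155 cKO libraries lay above the female controls, and the part of this in the results was not tested beyond the fit of replicates 2 and 3 alone. Control libraries held the genes of cortical tissue. Summed levels were 9871 to 10745 CPM for 12 genes listed as pan-neuronal and 2546 to 2786 CPM for 10 radial glia genes.

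RefSeq promoter windows on GRCm38.p6 were matched for 7 of the 9 genes, and those of Pou3f2 and Pou3f3 are shown because these genes had the highest levels per length and fell together. Each is the 250 bases before the start site, with the letters CCAAT or their reverse complement ATTGG in capitals. Pou3f2 lies at chr4:22488367-22488616 on the minus strand, and Pou3f3 at chr1:42695518-42695767 on the plus strand.
Pou3f2: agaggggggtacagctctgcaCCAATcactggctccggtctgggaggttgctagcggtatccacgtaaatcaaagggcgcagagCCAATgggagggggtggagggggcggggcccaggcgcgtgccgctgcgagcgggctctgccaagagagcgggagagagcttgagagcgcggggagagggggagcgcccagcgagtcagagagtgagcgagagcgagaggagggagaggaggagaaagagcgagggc
Pou3f3: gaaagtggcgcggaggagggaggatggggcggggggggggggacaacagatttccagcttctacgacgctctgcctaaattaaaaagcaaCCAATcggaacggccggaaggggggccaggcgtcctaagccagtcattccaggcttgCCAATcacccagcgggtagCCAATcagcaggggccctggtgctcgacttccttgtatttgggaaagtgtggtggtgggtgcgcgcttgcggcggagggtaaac
The Pou3f2 window held 2 matches, which began 229 and 166 bases before the start, and the Pou3f3 window held 3, which began 160, 103 and 84 bases before it. Of 32817 mouse promoter windows of 250 bases, 33.8% held at least 1 match and 10.1% at least 2. The octamer ATGCAAAT, searched on both strands like CCAAT, was in 1.6% of all windows and in neither of these. In the same windows before the annotated starts that GENCODE and RefSeq share, Rorb held 1 match, Mef2c held 2 and Inhba held none. The windows of Cux1 and Cux2, whose RefSeq starts differ from those of GENCODE, held none. Further windows within Rorb and Mef2c held none, apart from 1 match in the Mef2c window before position 83523656. A match is a description of the letters only. No window was matched for Pou3f1 and Unc5d.

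In the BAF155 cKO, 8 of the 9 genes were called lower than in control and 0 higher. A gene was called at an adjusted p under 0.05 in edgeR's quasi-likelihood test with Benjamini-Hochberg adjustment over all genes, and by that rule 7.56% of all genes were called lower and 6.04% higher. Among the Pax6-labelled libraries, 7 of the 9 were called lower and 0 higher, against 18.9% of all genes called lower and 16.6% higher. All 7 were also called lower in the BAF155 cKO, and 5.84% of all genes were lower in both. Every BAF155 cKO library lay below every control for 6 of the 9 genes, as for 7.95% of all genes, and every Pax6-labelled library did for 7 of the 9, as for 18.3% of all genes. The median log2 fold change of the 9 genes was −0.59 in the BAF155 cKO and −0.74 in the Pax6-labelled libraries, where the median of all genes was 0.01 and 0.02. Unc5d fell most in both, and Inhba was called in neither. The 9 genes were chosen with earlier results of these data known, so these counts beside the shares of all genes are descriptive. Both comparisons use the same 4 controls and are therefore not independent of each other. In RNA from whole tissue, fewer cells of a type and less RNA per cell cannot be told apart.

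**Figure D1:**
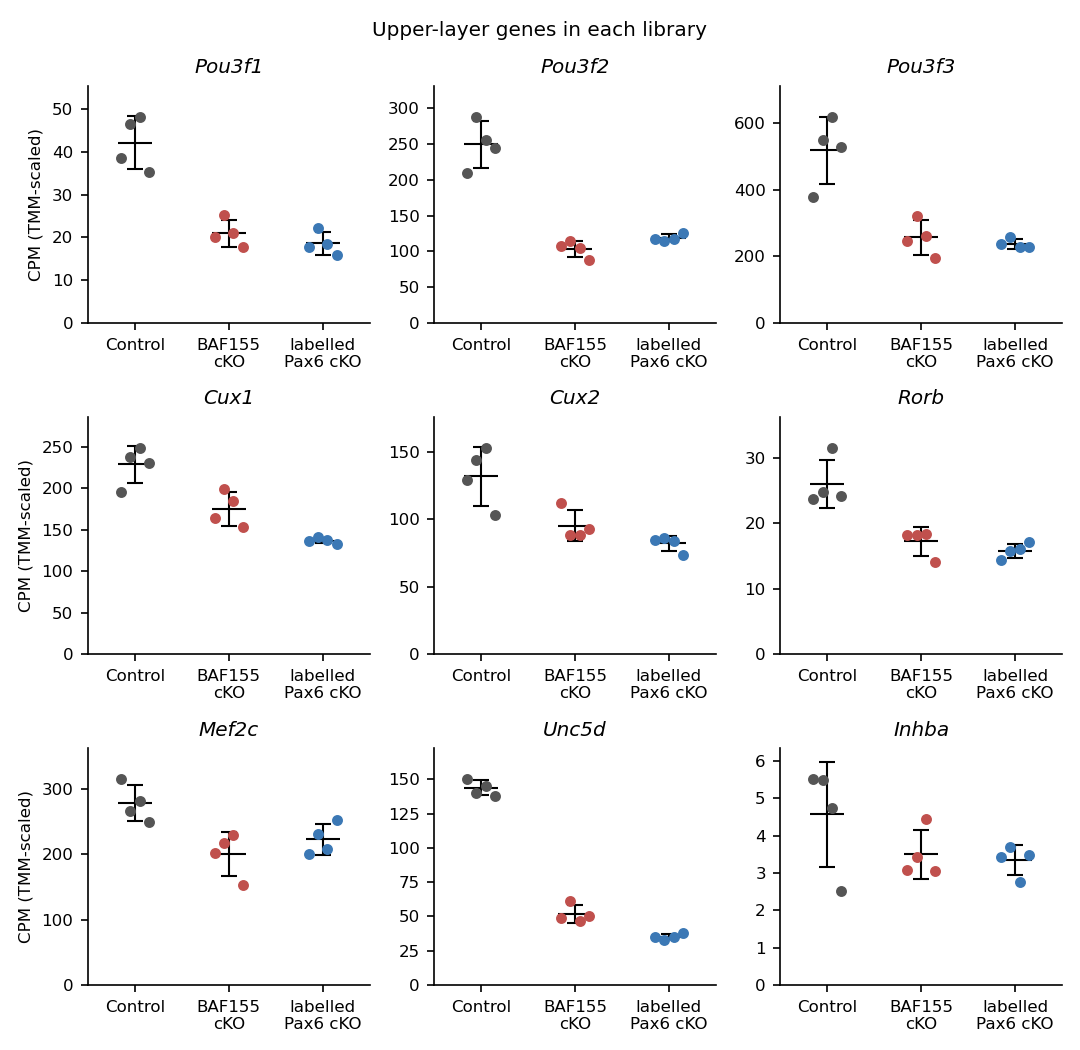
Level of each of the 9 upper-layer genes in every library, in CPM, for control, the BAF155 cKO and the Pax6-labelled libraries; points are libraries in the order of their replicate numbers, and bars are mean ± SD (n = 4). Unc5d, Pou3f1, Pou3f2, Pou3f3 and Rorb show no overlap between control and either cKO-labelled group, whereas Inhba overlaps in both.

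The 3 POU class III genes of the list fell in both cKO-labelled groups, by about 1 on the log2 scale. Pou3f2 (chromosome 4, 22482780 to 22488366, minus strand, a single exon; all positions are on GRCm38) was at 209, 288, 256 and 245 CPM in control replicates 1 to 4. It was at 107, 114, 105 and 87.6 CPM in the BAF155 cKO libraries and 118, 114, 118 and 126 CPM in the Pax6-labelled libraries. All 8 cKO-labelled libraries lay below the lowest control, and the log2 fold change was −1.27 (adjusted p = 9.14e-07, SE 0.10) and −1.07 (adjusted p = 3.80e-06, SE 0.10). Pou3f3 (chromosome 1, 42695768 to 42703176, plus strand, a single exon) was at 378, 549, 619 and 530 CPM in control. Its level was 247, 321, 262 and 196 CPM in the BAF155 cKO libraries and 237, 258, 228 and 227 CPM in the Pax6-labelled libraries. Control replicate 1 was the lowest control, and still above every cKO-labelled library. The log2 fold changes of Pou3f3 were −1.01 (adjusted p = 0.000419, SE 0.15) and −1.13 (adjusted p = 0.0001, SE 0.15). Pou3f1 (chromosome 4, 124656807 to 124660655, plus strand, a single exon) was lower in level, at 38.6, 46.6, 48.2 and 35.3 CPM in control. It was at 20.2, 25.2, 21 and 17.7 CPM in the BAF155 cKO libraries and 17.7, 22.3, 18.4 and 15.9 CPM in the Pax6-labelled libraries. These 2 sets overlap one another, and both lie under all controls. The log2 fold change of Pou3f1 was −1.0 (adjusted p = 0.000168, SE 0.13) in the BAF155 cKO and −1.18 (adjusted p = 1.90e-05, SE 0.13) in the Pax6-labelled libraries. An antisense gene, Gm2164, overlaps 330 of the 3849 exon bases of Pou3f1, and the libraries do not mark strand.

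The fourth gene of this class, Pou3f4, which is best known from the inner ear and the ventral forebrain, did not fall. It was at 22.5, 45.7, 35.3 and 34.9 CPM in the controls, 40.1, 52.6, 53 and 46.9 CPM in the BAF155 cKO libraries and 57.7, 68.1, 60.6 and 60.9 CPM in the Pax6-labelled libraries. The log2 fold change of Pou3f4 was 0.84 (adjusted p = 0.00148, SE 0.16) in the Pax6-labelled libraries, where it rose. In the BAF155 cKO it was 0.48 (adjusted p = 0.0554, SE 0.16), not called, and the gene was called without control replicate 2 (0.64, adjusted p = 0.0155) and by DESeq2 (0.47, adjusted p = 0.038). Per length, in RPKM (CPM per kilobase of exon), the 4 genes together reached 106 to 154 in control, 62.7 to 88.3 in the BAF155 cKO and 77.4 to 84.3 in the Pax6-labelled libraries. Pou3f4 made up 8.49% ± 1.28 of that sum in control, 22.1% ± 2.86 in the BAF155 cKO and 26.6% ± 0.87 in the Pax6-labelled libraries (SD, n = 4). The other members kept their order, with Pou3f3 highest at 50.8%, 45.9% and 40.4% of the sum. The ratio of Pou3f2 to Pou3f3 in CPM was 0.489 ± 0.0627 in control, 0.409 ± 0.0398 in the BAF155 cKO and 0.503 ± 0.046 in the Pax6-labelled libraries. In 9 exact two-sided permutation tests of such ratios (also Pou3f1 to Pou3f3 and Cux1 to Cux2, each in 3 comparisons, smallest possible p = 0.0286), the lowest raw p was 0.0571 and the lowest adjusted p was 0.514.

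Cux1 and Cux2 fell by less than 1 on the log2 scale, and their calls in the BAF155 cKO depended on single libraries. Cux1 (chromosome 5, 136248135 to 136567490, minus strand) was at 196, 238, 249 and 231 CPM in control and 164, 199, 185 and 154 CPM in the BAF155 cKO. For the Pax6-labelled libraries it was at 136, 141, 138 and 133 CPM. BAF155 cKO replicate 2 lay above control replicate 1, so these groups overlap, whereas the Pax6-labelled libraries lay under all others. The log2 fold change of Cux1 was −0.38 (adjusted p = 0.016, SE 0.09) in the BAF155 cKO and −0.74 (adjusted p = 6.77e-05, SE 0.09) in the Pax6-labelled libraries. It was not called in the BAF155 cKO without replicate 4 of that group (−0.32, adjusted p = 0.0577) or without control replicate 3 (−0.34, adjusted p = 0.0549). It was called against the female controls alone, at −0.45 (adjusted p = 0.00835). An antisense gene, Gm16599, overlaps 394 of its 20024 exon bases.

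Cux2 (chromosome 5, 121856366 to 122050102, minus strand) was at 129, 144, 153 and 103 CPM in control and 112, 88.5, 88.1 and 92.6 CPM in the BAF155 cKO. In the Pax6-labelled libraries it was at 85, 85.8, 84.1 and 73.4 CPM. Control replicate 4 lay below BAF155 cKO replicate 1 and above all Pax6-labelled libraries. The log2 fold change of Cux2 was −0.47 (adjusted p = 0.0162, SE 0.12) in the BAF155 cKO and −0.68 (adjusted p = 0.000669) in the Pax6-labelled libraries. In the BAF155 cKO it was not called without control replicate 3 (−0.39, adjusted p = 0.0569). Per length, Cux1 made up 46.8% of the sum of both genes in control, 48.1% in the BAF155 cKO and 45.7% in the Pax6-labelled libraries.

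Rorb (chromosome 19, 18930605 to 19111196, minus strand), the layer 4 receptor, was at 23.7, 24.7, 31.5 and 24.2 CPM in control. It was at 18.2, 18.2, 18.4 and 14 CPM in the BAF155 cKO libraries and 14.4, 15.7, 16 and 17.1 CPM in the Pax6-labelled libraries. All cKO-labelled libraries lay under all controls, and control replicate 3 stood above the other controls. Its log2 fold change was −0.59 (adjusted p = 0.00372, SE 0.12) and −0.72 (adjusted p = 0.000449, SE 0.12) in the same order. Its paralog Rora was called in neither comparison with control.

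Mef2c (chromosome 13, 83504034 to 83667080, plus strand), the MADS-box factor, was at 315, 266, 281 and 249 CPM in control and 202, 217, 230 and 153 CPM in the BAF155 cKO. Among the Pax6-labelled libraries it was at 200, 231, 208 and 252 CPM, of which replicate 4 lay above the lowest control. Its log2 fold change was −0.47 (adjusted p = 0.0197, SE 0.12) in the BAF155 cKO, where the call was lost without replicate 4 (−0.36, adjusted p = 0.0534). For the Pax6-labelled libraries it was −0.32 (SE 0.12) with an adjusted p just above 0.05, so the gene was not called. It was called there in 5 of 14 other settings, with RLE size factors (adjusted p = 0.0484), DESeq2 (adjusted p = 0.0324), no filter on low counts (adjusted p = 0.0368), only the 8 libraries compared (adjusted p = 0.0144) and without replicate 4 of that group (−0.39, adjusted p = 0.0407). Of its paralogs, Mef2d was called lower in the Pax6-labelled libraries (−0.32, adjusted p = 0.00806) but not against the male controls alone (−0.23, adjusted p = 0.117), and Mef2a was called in neither comparison.

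Unc5d (chromosome 8, 28646717 to 29219636, minus strand), the netrin and FLRT receptor, had the largest fall of the 9 genes. It was at 150, 140, 145 and 138 CPM in the controls, 49, 61.2, 46.7 and 50.6 CPM in the BAF155 cKO libraries and 35, 33.1, 35.4 and 37.8 CPM in the Pax6-labelled libraries. The 3 groups do not overlap at all, with control highest and the Pax6-labelled libraries lowest. The log2 fold change was −1.47 (adjusted p = 3.30e-08, SE 0.09), or 36.2% of control, in the BAF155 cKO. It was −2.02 (adjusted p = 5.93e-10, SE 0.09), or 24.6% of control, in the Pax6-labelled libraries. By size of log2 fold change, Unc5d was the 103rd lowest of 16511 genes in the first comparison and the 44th lowest in the second.

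**Figure D2:**
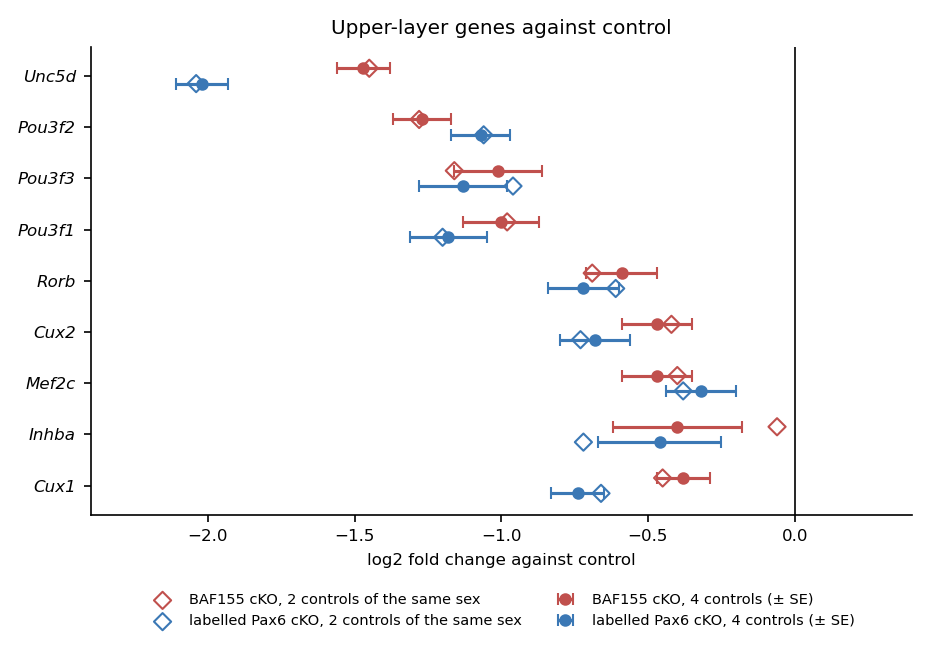
Log2 fold change against control of the 9 upper-layer genes; filled circles with bars are estimates with all 4 controls (± SE) and open diamonds use the 2 controls of the same sex. All values lie below 0, from −2.02 for Unc5d in the Pax6-labelled libraries to −0.32 for Mef2c there, and with same-sex controls to −0.06 for Inhba in the BAF155 cKO.

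Another receptor of this family, Unc5c, rose as Unc5d fell. Unc5c was at 18.1, 20.3, 16.5 and 16.5 CPM in the controls, 24.7, 29.4, 33.5 and 30.8 CPM in the BAF155 cKO libraries and 42, 32.6, 36.2 and 38.1 CPM in the Pax6-labelled libraries. Its log2 fold change was 0.73 (adjusted p = 0.000556, SE 0.11) and 1.06 (adjusted p = 9.26e-06, SE 0.11), and both cKO-labelled groups lay above all controls. The ratio of Unc5d to Unc5c, formed after their values were seen and not tested, was 8.1 ± 0.836 in control, 1.77 ± 0.315 in the BAF155 cKO and 0.955 ± 0.0821 in the Pax6-labelled libraries (CPM over CPM, SD, n = 4). Exons of Gm15688 on the other strand overlap Unc5c. Unc5a had a log2 fold change of −0.58 (adjusted p = 0.0146) in the Pax6-labelled libraries, and was not called without control replicate 3 (adjusted p = 0.0531) or without replicate 4 of that group (adjusted p = 0.0508), nor against the male controls alone (−0.48, adjusted p = 0.142). Unc5b was called in neither comparison. Per length, Unc5d made up 49.7% ± 4.58 of the 4 UNC5 genes in control, 27.1% ± 3 in the BAF155 cKO and 23% ± 2.63 in the Pax6-labelled libraries.

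**Figure D3:**
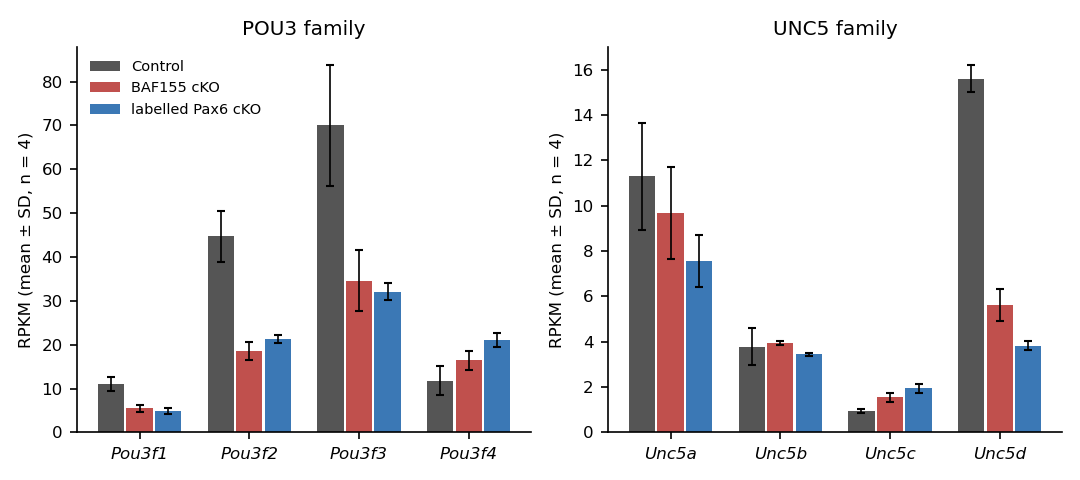
Level per length, in RPKM (mean ± SD, n = 4), of the POU class III genes and the UNC5 receptor genes in control, the BAF155 cKO and the Pax6-labelled libraries. Pou3f1, Pou3f2, Pou3f3 and Unc5d are lower in both cKO-labelled groups than in control, and Unc5c is higher in both. Pou3f4 was called higher in the Pax6-labelled libraries and not in the BAF155 cKO.

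Of 9 tested genes for netrin and FLRT ligands and the other receptors of this system, 2 were called lower in the BAF155 cKO and none higher. Ntn4, a netrin of basement membranes, had a log2 fold change of −0.66 (adjusted p = 0.000157), and Flrt1 one of −0.45 (adjusted p = 0.0172). Flrt1 was not called without BAF155 cKO replicate 4 (adjusted p = 0.0594) or control replicate 3 (adjusted p = 0.0651). In the Pax6-labelled libraries, 5 were called lower and 1 higher. The receptor Dscam fell (log2 fold change −0.88, adjusted p = 0.00018), as did Flrt1 (−0.65, adjusted p = 0.000768), and Ntng1, a membrane-bound netrin relative, rose (0.49, adjusted p = 0.00804). The netrin receptors Dcc (−0.73, adjusted p = 0.00257) and Neo1 (−0.54, adjusted p = 0.00297) are named here after their values were seen. Against the male controls alone, 3 of these genes were called lower, and Dcc was not (−0.43, adjusted p = 0.0533). The median log2 fold change of the list was −0.06 in the BAF155 cKO and −0.42 in the Pax6-labelled libraries.

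Inhba (chromosome 13, 16011851 to 16031621, plus strand) was the least abundant member and the least precise, with 48 to 167 reads per library. It was at 5.52, 5.49, 4.74 and 2.53 CPM in the controls, 3.07, 3.43, 4.44 and 3.06 CPM in the BAF155 cKO libraries and 3.43, 3.7, 2.77 and 3.49 CPM in the Pax6-labelled libraries. Control replicate 4 was the lowest of all 12 libraries. The log2 fold change of Inhba was −0.40 (adjusted p = 0.208, SE 0.22) in the BAF155 cKO and −0.46 (adjusted p = 0.104) in the Pax6-labelled libraries. Without control replicate 4 it was called lower in both, at −0.60 (adjusted p = 0.0434) and −0.66 (adjusted p = 0.013). Inhbb, which encodes the beta B subunit of the same ligands, was called lower with all libraries. It was at 43.1 ± 4.4 CPM in the controls, 27 ± 4.08 CPM in the BAF155 cKO libraries and 23 ± 2.28 CPM in the Pax6-labelled libraries, with log2 fold changes of −0.67 (adjusted p = 0.00118) and −0.91 (adjusted p = 5.10e-05).

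Of 11 tested genes of the activin pathway (receptors, SMADs and inhibitors), none was called in the BAF155 cKO. The type I receptor Acvr1b had a log2 fold change of −0.03 (adjusted p = 0.788) and the type II receptor Acvr2a one of 0.21 (adjusted p = 0.121). Against the female controls alone 1 was called higher and 2 lower. Among the Pax6-labelled libraries 1 was called higher and 3 lower. The pseudoreceptor Bambi rose (log2 fold change 0.90, adjusted p = 0.000235) and the signal transducer Smad3 fell (−0.87, adjusted p = 0.00137). Acvr1b was at −0.27 (adjusted p = 0.0215) and lost its call without any 1 of 5 libraries, control replicates 3 and 4 and Pax6-labelled replicates 1, 3 and 4 (adjusted p from 0.0588 to 0.0729), and against the male controls alone (−0.20, adjusted p = 0.192).

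The cKO-labelled groups were compared with each other directly, and 2 of the 9 genes were called higher in the BAF155 cKO and 0 lower, against 2.3% of all genes called higher and 2.01% lower. For Cux1, Cux2 and Unc5d, 3 of the 9, every BAF155 cKO library lay above every Pax6-labelled one, as for 7.5% of all genes. Unc5d was higher there by 0.56 in log2 (adjusted p = 0.00254, SE 0.09). Within lane 1 the difference was 0.65 (adjusted p = 0.0047), and with the BAF155 cKO libraries of lane 3 it was 0.47 (adjusted p = 0.019). Cux1 was higher by 0.36 (adjusted p = 0.0422, SE 0.09). That call was lost in 10 of 16 other settings, among them lane 1 alone (0.42, adjusted p = 0.054), lane 3 alone (0.31, adjusted p = 0.223) and the fits without any 1 of BAF155 cKO replicates 1, 2 and 3 or of the Pax6-labelled replicates (adjusted p from 0.0543 to 0.121). The other 7 genes differed by −0.20 for Pou3f2 to 0.22 for Cux2, with adjusted p from 0.26 to 0.909. Their standard errors were 0.10 to 0.22, and a p above the threshold does not show equal levels.

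Against controls of the same sex, 8 of the 9 genes were called lower in each cKO-labelled group. In the BAF155 cKO these were the same 8, with Inhba at −0.06 (adjusted p = 0.857). For the Pax6-labelled libraries, Inhba was called (−0.72, adjusted p = 0.0453) and Mef2c was not (−0.38, adjusted p = 0.0938). Of all genes, 2449 were then called lower in the BAF155 cKO and 1028 in the Pax6-labelled libraries, where the fits with all controls gave 1248 and 3121. The median log2 fold change of the 9 genes was −0.69 and −0.73. With BAF155 cKO replicates 2 and 3 alone, 6 of the 9 were called lower, without Cux1 (−0.25, adjusted p = 0.221), Mef2c (−0.31, adjusted p = 0.162) and Inhba, and the median was −0.58. Pou3f1, Pou3f2, Pou3f3, Rorb and Unc5d were called lower in the BAF155 cKO in all 17 other settings tried.

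Per length, the order of the members in control was Pou3f3 (70.0 ± 13.7 RPKM), Pou3f2 (44.7 ± 5.84), Mef2c (17.7 ± 1.77), Unc5d (15.6 ± 0.598), Cux2 (13.1 ± 2.16), Cux1 (11.4 ± 1.14), Pou3f1 (11 ± 1.62), Rorb (2.35 ± 0.333) and Inhba (0.715 ± 0.22), as mean ± SD over n = 4. Pou3f3 and Pou3f2 overlap between libraries, and so does each neighbouring pair from Mef2c to Pou3f1. Rorb and Inhba each stand apart from their neighbours. In both cKO-labelled groups Pou3f3 and Pou3f2 remained the highest and Rorb and Inhba the lowest. Unc5d went from the fourth place in control to the sixth in the BAF155 cKO (5.63 ± 0.697 RPKM) and the seventh in the Pax6-labelled libraries (3.83 ± 0.21 RPKM), under Pou3f1 (4.82 ± 0.703 RPKM).

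Within a group, all 9 genes lay above their group mean in control replicate 3 and all 9 below it in BAF155 cKO replicate 4. The other 10 libraries were split, with 2 to 7 of the 9 genes above the mean. The coefficient of variation of a member within a group had a median of 14.2% in control, 12.5% in the BAF155 cKO and 6.84% in the Pax6-labelled libraries. Likeness between genes was measured by the root mean square difference of their centred log2 levels over the 12 libraries, where smaller is more alike. The most alike members were Cux1 and Rorb (0.152) and Pou3f1 and Pou3f3 (0.155), and the least alike were Inhba and Unc5d (0.750). Unc5d was the farthest from the mean of the 9 profiles (0.474), and Rorb the nearest (0.129). Among 11590 genes with at least 5 CPM on average, the 5 outside the list whose profiles lay nearest to the mean were Trim2 (0.095), Nrip1 (0.104), Zhx2 (0.105), Cbfa2t2 (0.113) and Frmd4a (0.115). Trim2, a ubiquitin ligase of neurons, had log2 fold changes of −0.77 in the BAF155 cKO and −0.78 in the Pax6-labelled libraries.

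**Figure D4:**
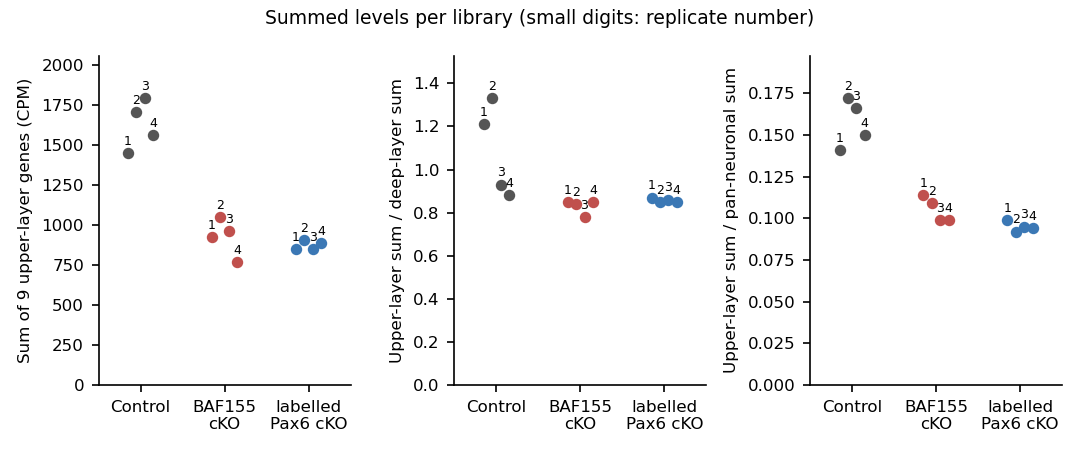
Summed level of the 9 upper-layer genes per library in CPM. That sum is also shown divided by the summed level of 10 deep-layer genes and of 12 genes listed as pan-neuronal. Points are libraries and small digits are replicate numbers. The sums are 1445 to 1788 CPM in the controls, 768 to 1048 CPM in the BAF155 cKO libraries and 847 to 904 CPM in the Pax6-labelled libraries.

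Summed over the 9 genes, the level was 1445 to 1788 CPM in the controls, 768 to 1048 CPM in the BAF155 cKO libraries and 847 to 904 CPM in the Pax6-labelled libraries. Divided by the sum of the genes listed as pan-neuronal, which include Neurod2 and Neurod6, it was 0.141 to 0.172 in control. That ratio was 0.099 to 0.114 in the BAF155 cKO and 0.092 to 0.099 in the Pax6-labelled libraries. Divided by the summed deep-layer genes, the level of the 9 genes was 1.21, 1.33, 0.93 and 0.88 in control replicates 1 to 4. It was 0.78 to 0.85 in the BAF155 cKO and 0.85 to 0.87 in the Pax6-labelled libraries. The 2 male controls were higher in this ratio than the 2 female ones, which had higher summed deep-layer levels (1921 and 1779 against 1199 and 1279 CPM). All cKO-labelled libraries lay under the lowest control, at 0.88, and the nearest to it was a Pax6-labelled library, at 0.87.

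Other lists of cell-type genes moved beside the members, and their part in the result was not tested. Of 10 other upper-layer genes, 4 were called lower in the BAF155 cKO and 7 in the Pax6-labelled libraries, and none higher. Limch1 fell in both (log2 fold change −0.78, adjusted p = 0.00183, and −1.27, adjusted p = 1.52e-05), and the ephrin receptor Epha3 fell (−1.07, adjusted p = 2.92e-06) in the Pax6-labelled libraries. Against same-sex controls, 6 and 5 of the 10 were called lower.

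Of 10 deep-layer genes, 4 were called lower in the BAF155 cKO and none higher, among them Hs3st4 (−0.89, adjusted p = 0.000157) and the layer 6 corepressor Tle4 (−0.58, adjusted p = 0.00053). In the Pax6-labelled libraries 7 were lower and 2 higher. There Tbr1, a determinant of layer 6, was at −1.26 (adjusted p = 0.000171), Tle4 at −0.48 (adjusted p = 0.00127) and Crym at 1.04 (adjusted p = 0.00301). Crym was not called against the male controls alone (0.79, adjusted p = 0.0735). Foxp2 (0.64, adjusted p = 0.0311) was not either (0.59, adjusted p = 0.218), and lost its call without any 1 of 6 libraries, control replicates 1, 3 and 4 and Pax6-labelled replicates 2, 3 and 4 (adjusted p from 0.0534 to 0.0932). Against same-sex controls, 8 were lower in the BAF155 cKO and 3 in the Pax6-labelled libraries, and none was higher. The median log2 fold change of the deep-layer list was −0.55 and −0.49 with all controls, beside −0.59 and −0.74 for the 9 members. Against same-sex controls it was −0.74 and −0.36, beside −0.69 and −0.73 for the members, so in the BAF155 cKO the order of the lists turned. The difference between the lists was not tested.

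Of 12 genes listed as pan-neuronal, 2 were called lower in the BAF155 cKO and 10 were not called. The 2 were the bHLH factors Neurod6 (−0.62, adjusted p = 0.00372) and Neurod2 (−0.64, adjusted p = 0.00823), which mark glutamatergic projection neurons rather than all neurons. Tubb3 (−0.22, adjusted p = 0.231) and Map2 (−0.16, adjusted p = 0.26) were among those not called. Among the Pax6-labelled libraries, 6 were lower, with Neurod2 at −1.11 (adjusted p = 6.51e-05) and the splicing factor Rbfox3 at −0.64 (adjusted p = 0.000664), and 1 higher. That gene, Stmn2 (0.42, adjusted p = 0.0206), was not called without control replicate 3 or 4 or Pax6-labelled replicate 2 or 4 (adjusted p from 0.0507 to 0.0768), nor against the male controls alone (0.21, adjusted p = 0.275). The list median was −0.19 and −0.32. With the controls of the same sex, 5 of these genes were called lower in the BAF155 cKO and 3 in the Pax6-labelled libraries. None was then called higher, and the list median was −0.21 and −0.23.

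Of 10 genes of basal intermediate progenitors, the main source of upper-layer neurons, 5 were called lower in the BAF155 cKO and 7 in the Pax6-labelled libraries, and none higher. In the same order, the bHLH gene Neurod4 was at −3.25 (adjusted p = 6.36e-09) and −4.35 (adjusted p = 3.82e-10) in log2. Eomes, the T-box factor that marks these cells, was at −1.95 (adjusted p = 3.80e-06) and −2.23 (adjusted p = 6.31e-07). The proneural factor Neurog2 was at −1.94 (adjusted p = 1.29e-05) and −3.04 (adjusted p = 1.08e-07). The list median was −0.68 in the BAF155 cKO and −0.89 in the Pax6-labelled libraries. In the BAF155 cKO the 5 genes not called ran from −0.33 for Insm1 to 0.11 for Chd7. With the controls of the same sex, 7 genes of this list were called lower in the BAF155 cKO and 6 in the Pax6-labelled libraries. The list summed to 705 to 1112 CPM in the controls, 483 to 686 CPM in the BAF155 cKO libraries and 462 to 502 CPM in the Pax6-labelled libraries. Of 10 radial glia genes, 5 were lower and 1, Pax6, higher in the BAF155 cKO, and 6 were lower and 2 higher in the Pax6-labelled libraries. The glycolytic enzyme Aldoc fell in both (−2.24, adjusted p = 4.38e-09, and −1.71, adjusted p = 4.46e-08). The glutamate transporter Slc1a3 fell in the BAF155 cKO (−1.01, adjusted p = 1.49e-06). The intermediate filament gene Nes fell in the Pax6-labelled libraries (−0.87, adjusted p = 0.000236), where Fabp7 rose (0.48, adjusted p = 0.0116). Fabp7 was not called against the male controls alone (0.26, adjusted p = 0.174). When the controls were of the same sex, 5 radial glia genes were lower in each cKO-labelled group. Higher calls were then 2 in the BAF155 cKO and 1 in the Pax6-labelled libraries.

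Of 10 genes of GABAergic neurons and the ventral telencephalon, 7 were called higher in the BAF155 cKO and 9 in the Pax6-labelled libraries, and none lower. Gad1, which makes GABA, rose by 1.19 (adjusted p = 0.000157) and 1.28 (adjusted p = 4.66e-05), and the homeobox gene Dlx1 by 1.03 (adjusted p = 9.77e-06) and 1.42 (adjusted p = 2.29e-07). Sp8 rose by 1.16 (adjusted p = 2.29e-05) in the Pax6-labelled libraries. The list summed to 570.2 to 832 CPM in the controls, 1112 to 1290.5 CPM in the BAF155 cKO libraries and 1345 to 1468 CPM in the Pax6-labelled libraries. Of 7 genes of Cajal-Retzius cells, the reelin-making neurons of the cortical surface, 6 were called higher in each cKO-labelled group, with Trp73 at 0.83 (adjusted p = 0.000143) and 0.93 (adjusted p = 2.55e-05). Ebf3 was at 0.97 (adjusted p = 1.79e-05) in the BAF155 cKO and Calb2 at 0.86 (adjusted p = 9.43e-07) in the Pax6-labelled libraries. With BAF155 cKO replicates 2 and 3 alone, 4 GABAergic and 3 Cajal-Retzius genes were called higher. When the controls were of the same sex, 7 GABAergic genes were called higher in each cKO-labelled group. Of the Cajal-Retzius genes, 5 were then called higher in the BAF155 cKO and 6 in the Pax6-labelled libraries. Exons of antisense genes overlap Dlx1, Trp73, Ebf3, Eomes and Hs3st4.

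**Figure D5:**
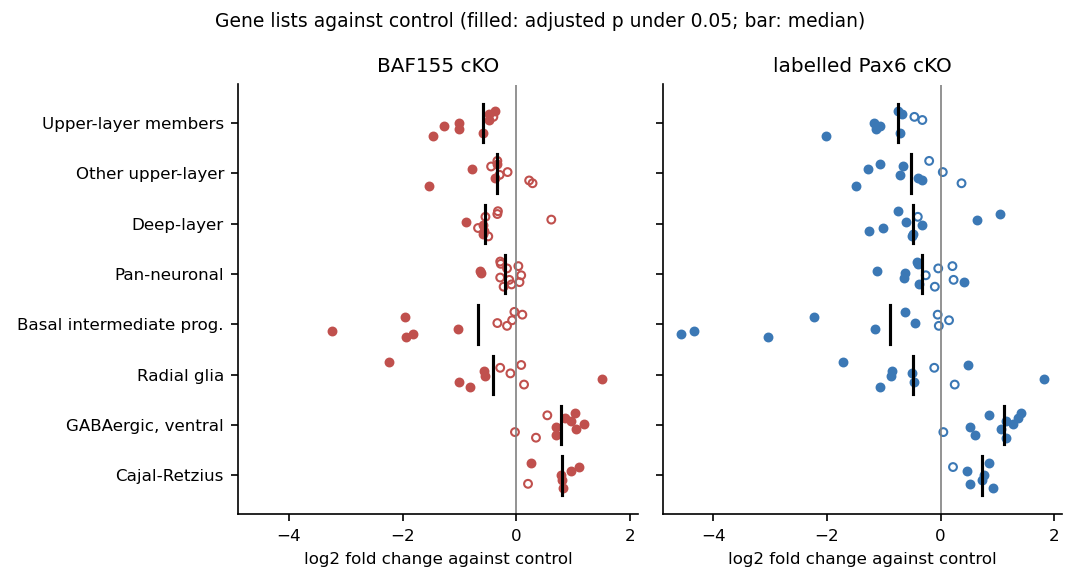
Log2 fold change against control of each gene in the upper-layer members and 7 other lists, for the BAF155 cKO and the Pax6-labelled libraries; filled points were called (adjusted p under 0.05), open points were not, and black bars are list medians. Both upper-layer lists lie mostly under 0 and the GABAergic and Cajal-Retzius lists mostly above it, with medians of −0.59 and −0.74 for the members and 0.78 and 1.11 for the GABAergic list.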

How the data were processed

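Raw read counts per gene, which the authors deposited as whole numbers with 1 file per library, were used for all 12 libraries. The reads were mapped to mm10, per the submitters' processing notes. Which aligner, counter and annotation were used is not given in the sources used here. The kit was TruSeq RNA v2, per the labels' protocols, and does not mark strand. Of 48709 identifiers, 48349 matched GENCODE M21, used for symbols, positions on GRCm38 and exon lengths, and the rest took up to 0.0397% of a library's reads.

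The tests used edgeR 4.0.16 in R 4.3.3. After filterByExpr, 16511 genes were tested, with TMM scaling. The robust quasi-likelihood fit took all 12 libraries together and gave each group its own coefficient. Adjusted p-values are Benjamini-Hochberg values of the quasi-likelihood F-test over all genes, and those under 0.05 were called. Standard errors were taken as the size of the log2 fold change over the root of the F statistic. CPM use TMM-scaled library sizes, and RPKM are CPM per kilobase of merged exons. Profiles are log2(CPM + 0.5), centred on their mean over the 12 libraries.

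Groups and replicate numbers came from the sample titles. The 9 genes and the 15 other lists were chosen with earlier results of these data known. The text names, per list and comparison with control, the 2 genes called with the lowest adjusted p each way (where none was called, the 2 with the most CPM) and the 5 genes with profiles nearest to the members, with some paralogs of the members, and says where other genes are named. Some genes that this rule covers are not reported here. A gene named for one comparison is also given for the other where it helps. No 2 libraries of a group agreed within sampling noise. Alternatives were RLE size factors, DESeq2 1.42.0, no filter on low counts, only the 8 libraries compared, a replicate block, controls of the same sex, single lanes, each library left out, and, added after seeing the data, BAF155 cKO replicates 2 and 3 alone. The edgeR fit was tested on simulated counts, with changes placed in the BAF155 cKO group only. The other steps were not tested on simulated data.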

Additional observations from a re-analysis of the deposited data

Results flagged for a closer look

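For each of the 9 genes, each group of 4 libraries was searched for a library that stood far from the other 3, by Dixon's test of the gap over the range. Of the 27 sets searched, 3 had such a library, where chance flags about 1 set in 20. Cux2 in Pax6-labelled replicate 4 was at 73.4 CPM, below the 84.1 to 85.8 CPM of the other 3. Rorb in control replicate 3 was at 31.5 CPM, above 23.7 to 24.7 CPM. Rorb in BAF155 cKO replicate 4 was at 14 CPM, below 18.2 to 18.4 CPM. In that BAF155 cKO library all 9 genes lay below their group mean, and in that control library all 9 lay above it.

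The change against control differed between the cKO-labelled groups for 2 of the 9 genes, by edgeR's test of the direct contrast. The fall of Unc5d was smaller in the BAF155 cKO by 0.56 on the log2 scale (adjusted p = 0.00254, higher in 4 of 4 libraries). The fall of Cux1 was smaller by 0.36 (adjusted p = 0.0422, higher in 4 of 4 libraries), with adjusted p from 0.00948 to 0.223 over 16 alternatives. These groups also differ in sex, which cannot be told apart from genotype here.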

How the results depend on the processing

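All 9 genes had a log2 fold change below 0 in both comparisons with control in all 17 alternatives for the BAF155 cKO and all 14 for the Pax6-labelled libraries. Calls in the BAF155 cKO comparison moved with the libraries used. With replicates 2 and 3 alone, 228 genes were higher and 425 lower (998 and 1248 with all), with lane 1 alone 258 and 424, against same-sex controls 2085 and 2449, and with the 8 libraries compared 379 and 656. Of the 9 genes, 5 were called lower with lane 1 alone (without Cux1, Cux2, Mef2c and Inhba) and 5 with the 8 libraries. Against same-sex controls, 744 genes were higher and 1028 lower in the Pax6-labelled libraries (2745 and 3121 with all). In the direct contrast (379 higher and 332 lower), 612 were higher with replicates 2 and 3 alone, 142 with lane 3 alone and 719 with DESeq2, and 164 were lower with lane 1 alone, 67 with lane 3 alone and 600 with DESeq2. Of the 9 genes, 1 was then higher with lane 1, with lane 3 and without the filter. The cause was not tested, and the smaller fits also held fewer libraries.

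Leaving out 1 library at a time, the BAF155 cKO comparison gave 346 to 1973 genes higher, 655 to 2100 lower, and 0 to 0 of the 9 genes higher and 6 to 9 lower. The lowest counts came without BAF155 cKO replicate 4 and the highest without replicate 2, and the 9 without control replicate 4. In the Pax6-labelled libraries it gave 1732 to 2908 genes higher, 2093 to 3693 lower and 7 to 8 of the 9 lower, with the lowest counts without control replicate 3. In the direct contrast it gave 158 to 419 higher, 143 to 367 lower, and 1 to 2 of the 9 genes higher, with the lowest counts without Pax6-labelled replicates 3 and 2.

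Signs reversed only for log2 fold changes that were not called. In the direct contrast, Inhba was at −0.03 with lane 1 alone, −0.05 without BAF155 cKO replicate 3 and −0.02 without Pax6-labelled replicate 3, Mef2c at 0.02 with replicates 2 and 3 alone, and Pou3f3 at −0.04 with lane 3 alone and −0.02 without BAF155 cKO replicate 2. Over all fits without 1 library, Inhba ran from −0.05 to 0.12 and Pou3f3 from −0.02 to 0.22. Among other genes named in the BAF155 cKO, Acvr1b was at 0.02 with replicates 2 and 3 alone and 0.01 with lane 3 alone, Cldn5 at 0.02 with lane 3 alone and 0.03 against same-sex controls, and Kdr at 0.25 with replicates 2 and 3 alone, 0.05 without replicate 1 and 0.03 without replicate 4 (−0.24 to 0.05 over all fits without 1 library).

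The labels do not say whether the replicate numbers pair the libraries. Deviations of same-numbered libraries correlated at −0.30 to 0.46. The highest values, 0.46 and 0.36, were for replicates 1 and 2 of the BAF155 cKO and the Pax6-labelled libraries, which share lane 1. Whether the numbers pair part of the libraries was not tested. With the replicate block, 1052 genes were higher and 1193 lower in the BAF155 cKO, 2751 and 2938 in the Pax6-labelled libraries, and 250 and 247 in the direct contrast, and no call among the 9 genes changed. Other size factors moved the median of all genes by at most 0.01. Depth limits Inhba, at 48 to 167 reads per library.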

Other observations

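Lists of other cell types that an embryonic cortex sample can hold were also counted. Of 5 oligodendrocyte precursor genes, 2 were called higher and 2 lower in the BAF155 cKO, and 2 higher and 1 lower in the Pax6-labelled libraries. Olig2, also a gene of ventral progenitors, rose by 0.94 in log2 (adjusted p = 0.00174) and 0.72 (adjusted p = 0.00463), Pdgfra by 0.62 (adjusted p = 0.011) in the BAF155 cKO, and Sox10 fell there (−1.12, adjusted p = 0.00438). Cspg4 was at −0.41 (adjusted p = 0.0302) in the BAF155 cKO, where it was not called without any 1 of 4 libraries, BAF155 cKO replicates 1 and 4 and control replicates 2 and 4 (adjusted p from 0.0574 to 0.0974), or against the female controls alone (adjusted p = 0.105), and at −0.44 (adjusted p = 0.00884) in the Pax6-labelled libraries. Olig1 was at 0.51 (adjusted p = 0.0361) in the Pax6-labelled libraries and lost its call without any 1 of 6 libraries, control replicates 1, 3 and 4 and Pax6-labelled replicates 1, 2 and 3 (adjusted p from 0.0704 to 0.112), and against the male controls alone (adjusted p = 0.281). With BAF155 cKO replicates 2 and 3 alone, Sox10 was not called (adjusted p = 0.0643).

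Of 5 thalamic genes, 2 were higher and 1 lower in the BAF155 cKO, and 1 higher and 2 lower in the Pax6-labelled libraries. Lhx9 was at 0.95 (adjusted p = 0.00736) in the BAF155 cKO, Prox1 at 0.54 in both (adjusted p = 0.0144 and 0.00589) and Tcf7l2, a defining gene of thalamic neurons, at −0.86 (adjusted p = 0.00708) and −1.17 (adjusted p = 0.000362). Lef1 was at −0.80 (adjusted p = 0.0151) in the Pax6-labelled libraries and was not called without control replicate 3 (adjusted p = 0.0557) or 4 (adjusted p = 0.0556), nor against the male controls alone (−0.40, adjusted p = 0.28). With BAF155 cKO replicates 2 and 3 alone, Lhx9 (adjusted p = 0.0818) and Tcf7l2 (adjusted p = 0.0757) were not called. The list summed to 50.5 to 83.4 CPM in control, 83.9 to 121 CPM in the BAF155 cKO and 68.8 to 75.1 CPM in the Pax6-labelled libraries.

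Of 7 microglial genes, 1 was called lower in the BAF155 cKO, Cx3cr1 (−0.65, adjusted p = 0.0372), which lost its call without any 1 of 5 libraries, BAF155 cKO replicates 1 and 2 and control replicates 2, 3 and 4 (adjusted p from 0.0525 to 0.0962), and against the female controls alone (adjusted p = 0.0926). In the Pax6-labelled libraries 1 was higher, Trem2 (0.50, adjusted p = 0.0214), not called without control replicate 3 or 4 or Pax6-labelled replicate 2 (adjusted p from 0.0538 to 0.0751), nor against the male controls alone (adjusted p = 0.183). Of 6 endothelial genes, none was called in the BAF155 cKO, with Kdr at −0.07 (adjusted p = 0.771) and Cldn5 at −0.17 (adjusted p = 0.419). Cldn5 was at 0.47 (adjusted p = 0.0208) in the Pax6-labelled libraries and not called without control replicate 3 or 4 or Pax6-labelled replicate 2 (adjusted p from 0.0693 to 0.0712), nor against the male controls alone (adjusted p = 0.241). Of 6 erythroid genes, Hbb-bt was at 0.67 (adjusted p = 0.0151) in the BAF155 cKO, not called without control replicate 3 (adjusted p = 0.0559). In the Pax6-labelled libraries, Hbb-bs was at 0.89 (adjusted p = 0.00344) and Hbb-bt at 0.70 (adjusted p = 0.00488). Reads of these 2 paralogs are hard to assign, and neither was called against the male controls alone (adjusted p = 0.0749 and 0.0802).

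Of the 10 tested paralogs of the 9 genes, 1 was called higher and 1 lower in the BAF155 cKO, and 2 higher and 3 lower in the Pax6-labelled libraries, with medians of 0.06 and −0.01 in log2.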
